A study of Mus musculus with 13 samples.

Results

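The genes described here are 6 components of the leukaemia inhibitory factor (LIF) pathway: the receptor chains Lifr and Il6st, the kinase Jak1, the transcription factor Stat3, and the suppressors of cytokine signalling Socs2 and Socs3. Each was read from the array row annotated with its symbol alone, and where a gene had several such rows the row with the highest mean over all arrays was taken. All 6 genes had such a row, among 14807 genes with a row of their own and 16661 rows tested. Socs3 alone had 2 rows.

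Expression was measured on 13 Affymetrix Mouse Exon 1.0 ST arrays of total RNA from mouse cells. Each of 4 induced pluripotent stem (iPS) clones, numbered 1, 2, 5 and 6, had 2 arrays, as had the embryonic fibroblasts (MEF) and an embryonic stem (ES) line called MPSVII ES here, and the control ES line B6 Blu had 1. Per the labels the clones were picked after a lentivirus named OSK (commonly Oct4, Sox2 and Klf4) was given to C57Bl/6 embryonic fibroblasts, and were grown on fibroblast feeder layers. The titles name the disease model MPSVII (mucopolysaccharidosis type VII) for the clones, the MEF and the MPSVII ES cells. Other label fields call the fibroblasts and the clones wildtype. The labels thus do not settle the genotype of the clones and the MEF. B6 Blu ES is of strain C57BL/6NTac and the others of C57Bl/6. Each iPS line is a single clone, so a difference between clones is a difference between single lines. Whether the 2 arrays of a line came from separate cultures is not stated, and p-values then measure the spread between these arrays, which may be technical.

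LIF binds the receptor chain encoded by Lifr, which pairs with gp130, the shared signalling chain encoded by Il6st. Kinases of the JAK family bound to the chains then phosphorylate STAT3, which enters the nucleus and switches on target genes. SOCS proteins are feedback inhibitors of such receptors. In culture, LIF is the cytokine that keeps mouse ES cells in their undifferentiated state.

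The promoters of the 3 genes that were lower in every pluripotent line than in MEF, and that of Socs3, a known STAT3 target gene, were read from RefSeq (build GRCm38.p6) as 250 bases before and 50 bases after the annotated start. Capitals mark 2 motifs searched on both strands, the STAT palindrome TTCNNNGAA and the GC box GGGCGG, read as its reverse complement on the other strand. Matches of both did not overlap in these windows.
Il6st, chr13:112463820-112464119, plus strand: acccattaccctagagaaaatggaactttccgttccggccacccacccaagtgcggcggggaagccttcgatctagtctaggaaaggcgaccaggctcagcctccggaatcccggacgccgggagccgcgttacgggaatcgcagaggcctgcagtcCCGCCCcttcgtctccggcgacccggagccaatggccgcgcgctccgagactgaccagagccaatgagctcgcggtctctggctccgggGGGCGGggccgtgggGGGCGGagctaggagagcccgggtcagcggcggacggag
Jak1, chr4:101265174-101265473, minus strand: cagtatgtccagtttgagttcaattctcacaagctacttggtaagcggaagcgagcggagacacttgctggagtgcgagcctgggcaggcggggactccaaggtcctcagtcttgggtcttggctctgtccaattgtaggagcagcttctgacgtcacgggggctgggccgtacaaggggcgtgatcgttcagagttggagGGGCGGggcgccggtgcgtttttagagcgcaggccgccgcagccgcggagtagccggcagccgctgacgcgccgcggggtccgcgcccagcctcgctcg
Stat3, chr11:100939491-100939790, minus strand: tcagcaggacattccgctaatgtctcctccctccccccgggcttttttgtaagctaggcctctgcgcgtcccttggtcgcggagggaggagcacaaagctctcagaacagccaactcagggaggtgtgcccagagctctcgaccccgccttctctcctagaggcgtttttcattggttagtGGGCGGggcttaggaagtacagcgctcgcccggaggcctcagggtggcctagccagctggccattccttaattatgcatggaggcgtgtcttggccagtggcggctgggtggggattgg
Socs3, chr11:117969317-117969616, minus strand: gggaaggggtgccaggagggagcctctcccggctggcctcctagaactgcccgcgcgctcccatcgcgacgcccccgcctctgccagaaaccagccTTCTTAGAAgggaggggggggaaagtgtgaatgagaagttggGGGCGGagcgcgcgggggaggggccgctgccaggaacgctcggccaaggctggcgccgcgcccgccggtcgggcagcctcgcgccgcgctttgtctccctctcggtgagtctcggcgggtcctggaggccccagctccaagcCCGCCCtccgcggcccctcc
The STAT palindrome was found in the Socs3 window alone of these 4, as TTCTTAGAA at position -154 from the start, and 8.3% of the 32851 promoters in the table hold it. A GC box was found in all 4 windows, with 3 matches for Il6st, 2 for Socs3 and 1 each for Jak1 and Stat3, and 35.7% of all promoters hold it. A match is a description of the letters and not a measured binding site. Promoters were matched for 5 of the 6 genes. Socs2 was the gene without one, so its promoter was not searched. The Lifr windows, not printed here, held no STAT palindrome.

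The lines were first checked against marker genes. On the log2 scale the mean of 11 pluripotency markers lay between 6.99 and 8.03 on the 8 clone arrays, at 8.21 and 8.13 in MPSVII ES, at 7.46 in B6 Blu ES and at 3.63 and 3.62 in MEF. The mean of 11 fibroblast markers was 8.13 and 7.62 in MEF, 4.11 to 5.03 in the clones, 4.30 and 4.28 in MPSVII ES and 5.48 in B6 Blu ES. The mean of 12 macrophage markers was 8.49 and 8.15 in MEF and 3.85 to 4.08 on the 11 pluripotent arrays, and 11 of these 12 were called lower in the clones than in MEF. The MEF arrays therefore carry macrophage signal beside fibroblast signal, and the part of either in the differences from MEF was not tested. In such bulk RNA, fewer cells of a type and less RNA per cell cannot be told apart.

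**Figure D1:**
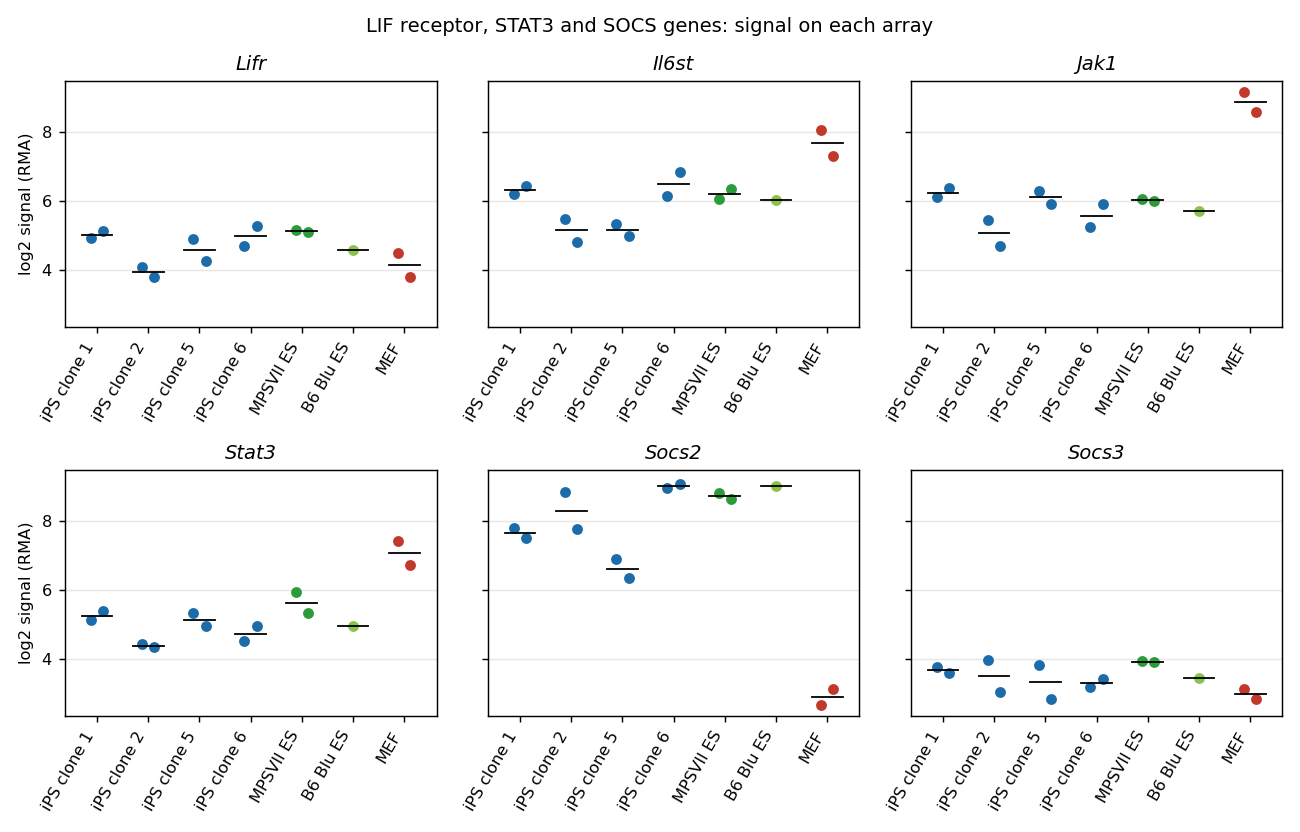
Log2 RMA signal (y axis) of the 6 genes on each of the 13 arrays, by line (x axis). Points are arrays and bars are line means; values of different genes come from different probes and are not comparable. MEF stands above every other line for Il6st, Jak1 and Stat3 and below every other line for Socs2.

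Socs2, an inhibitor best known from growth hormone signalling, separated the pluripotent lines from MEF the most. Its log2 signal was 2.66 and 3.12 on the MEF arrays, below the median of the tested rows there (4.45 and 4.34). It was 7.77 and 7.51 in clone 1, 8.82 and 7.75 in clone 2, 6.90 and 6.33 in clone 5, and 8.95 and 9.07 in clone 6. MPSVII ES gave 8.78 and 8.62 and B6 Blu ES 9.01. Every pluripotent array was thus more than 3 log2 units above both MEF arrays, and clone 5 was the lowest of the pluripotent lines. Socs2 was higher than in MEF by 4.99 ± 0.26 log2 units in the clones (limma standard error), a 31.9-fold difference (adjusted p = 1.67e-07). The difference was 5.81 ± 0.33 in MPSVII ES (adjusted p = 7.94e-07) and 6.12 ± 0.41 in B6 Blu ES (adjusted p = 5.83e-06). By absolute size it ranked 64, 24 and 14 among the 16661 rows in these 3 comparisons, which share the MEF arrays. The fold value and the ranks rest on a MEF signal in the low range of the arrays.

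Jak1, the kinase that phosphorylates gp130 and STAT3, was the member with the strongest decrease from MEF. The MEF arrays stood at 9.15 and 8.56. The clone arrays stood at 6.12 and 6.37 for clone 1, 5.45 and 4.69 for clone 2, 6.29 and 5.92 for clone 5, and 5.25 and 5.90 for clone 6. MPSVII ES stood at 6.05 and 5.99 and B6 Blu ES at 5.72. No pluripotent array reached either MEF array. Jak1 was lower by 3.11 ± 0.25 in the clones than in MEF, or 8.62-fold (log2 difference -3.11, adjusted p = 3.04e-06). The log2 difference was -2.84 ± 0.31 for MPSVII ES (adjusted p = 6e-05) and -3.14 ± 0.38 for B6 Blu ES (adjusted p = 0.000254).

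Stat3 moved in the same direction. Its MEF values were 7.41 and 6.72, against 5.12 and 5.38 in clone 1, 4.41 and 4.34 in clone 2, 5.31 and 4.95 in clone 5, and 4.51 and 4.94 in clone 6. MPSVII ES had 5.93 and 5.32 and B6 Blu ES 4.95. MPSVII ES was the pluripotent line nearest to MEF, and clone 2 the farthest. The clones differed from MEF by -2.19 ± 0.23 (4.58-fold, adjusted p = 2.25e-05), MPSVII ES by -1.44 ± 0.29 (2.71-fold, adjusted p = 0.00336) and B6 Blu ES by -2.11 ± 0.35 (4.33-fold, adjusted p = 0.00163).

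Il6st, the gp130 chain that LIF shares with interleukin 6 and related cytokines, was also lower in the pluripotent lines. MEF gave 8.05 and 7.31. The clones gave 6.19 and 6.42 (clone 1), 5.48 and 4.81 (clone 2), 5.32 and 4.99 (clone 5), and 6.14 and 6.83 (clone 6). MPSVII ES gave 6.06 and 6.35 and B6 Blu ES 6.02. All pluripotent arrays lay below both MEF arrays, with clones 2 and 5 lowest. The log2 difference from MEF was -1.90 ± 0.26 in the clones (3.74-fold, adjusted p = 0.000157), -1.47 ± 0.33 in MPSVII ES (adjusted p = 0.00602) and -1.66 ± 0.40 in B6 Blu ES (adjusted p = 0.0125). With the mean of each line as a sample, so that the spread is that between clones, the call of the clones was lost (adjusted p = 0.0992), while those of Jak1, Stat3 and Socs2 held (0.00891, 0.0125 and 0.0139). The MPSVII ES call was lost without MEF replicate 1 (-1.11, adjusted p = 0.0644) or MPSVII ES replicate 1 (-1.33, adjusted p = 0.0514), and that of B6 Blu ES without MEF replicate 1 (-1.29, adjusted p = 0.0741).

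Lifr, which encodes the LIF-binding chain itself, did not share the decrease of its partner chain. It stood at 4.48 and 3.81 in MEF, at 5.16 and 5.09 in MPSVII ES and at 4.56 in B6 Blu ES. The clones had 4.93 and 5.13 (clone 1), 4.08 and 3.79 (clone 2), 4.89 and 4.26 (clone 5), and 4.70 and 5.26 (clone 6). The MPSVII ES arrays lay above both MEF arrays, while clone 2 lay among or below them. Lifr was higher in MPSVII ES than in MEF by 0.98 ± 0.29 (1.98-fold, adjusted p = 0.0293). This call was lost without MEF replicate 2 (0.65, adjusted p = 0.204), without MPSVII ES replicate 1 or 2 (0.95 and 1.02, adjusted p = 0.124 and 0.0976), or with the control rows of the table included (adjusted p = 0.0603). In the clones the difference of 0.49 ± 0.23 did not pass (95% interval -0.03 to 1.0, adjusted p = 0.141). It passed without clone 2 (0.72, adjusted p = 0.046) and after quantile, median or intensity-dependent normalization (0.73, 0.75 and 0.78, adjusted p = 0.00791, 0.0122 and 0.00692). It was 0.15 without MEF replicate 2 (adjusted p = 0.759) and 0.82 without MEF replicate 1 (adjusted p = 0.0626), and with line means as samples the adjusted p was 0.555. B6 Blu ES differed from MEF by 0.42 ± 0.36 (adjusted p = 0.497), and by 0.76 or 0.085 without MEF replicate 1 or 2 (adjusted p = 0.247 and 0.913).

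Socs3, the inhibitor that binds gp130 and JAK1 and is switched on by STAT3, gave low signal in every line. The row used read 3.12 and 2.84 in MEF, 3.92 and 3.90 in MPSVII ES and 3.45 in B6 Blu ES. The clone arrays read 3.75 and 3.57 (clone 1), 3.97 and 3.04 (clone 2), 3.82 and 2.85 (clone 5), and 3.17 and 3.41 (clone 6). All of these values lay below the median of the tested rows on their array, which was 3.97 to 4.45. The replicates of clones 2 and 5 were as far apart as MEF and MPSVII ES. None of the 3 comparisons with MEF called Socs3, with 0.47 ± 0.27 for the clones (adjusted p = 0.234), 0.93 ± 0.34 for MPSVII ES (adjusted p = 0.072) and 0.47 ± 0.42 for B6 Blu ES (adjusted p = 0.524). The MPSVII ES difference passed under several other settings, for example 0.99 after quantile normalization (adjusted p = 0.0495) and 1.14 after median centring (adjusted p = 0.0126), and median centring also brought the clones past the test (0.73, adjusted p = 0.0268). The other Socs3 row read between 1.59 and 2.27 on all arrays and gave differences of the opposite sign (-0.35, -0.35 and -0.02), so the files settle no direction for Socs3.

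**Figure D2:**
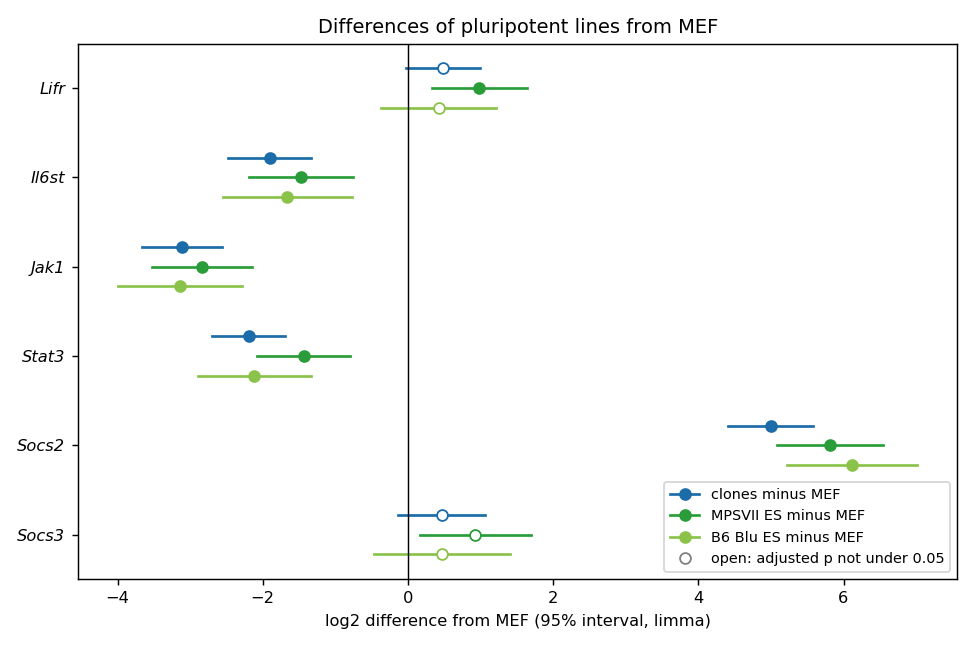
Log2 difference from MEF (x axis, with 95% intervals of limma) of the 6 genes in the mean of the 4 clones, in MPSVII ES and in B6 Blu ES; filled points passed the test. Intervals for Il6st, Jak1 and Stat3 lie below 0 and those for Socs2 above 4 in all 3 comparisons.

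In counts, 4 of the 6 genes were called between the clones and MEF, 3 lower and 1 higher, where 34.8% of all rows were called, 27% lower and 7.78% higher. Between MPSVII ES and MEF 5 were called, 3 lower and 2 higher, against 26.7% of all rows (20% lower and 6.7% higher). Between B6 Blu ES and MEF 4 were called, 3 lower and 1 higher, against 21.3% (18% and 3.3%). The members' medians were -0.72, -0.25 and -0.62, beside -0.09, -0.08 and -0.12 over all rows. The MEF arrays had the highest medians (4.45 and 4.34) and the widest interquartile ranges (2.83 and 2.41 log2 units) of the 13 arrays. The split over all rows depended on the scaling. Among rows called for the clones against MEF 22.4% were higher in the deposited values, 51.7% after quantile normalization, 49% after median centring and 42.5% after intensity-dependent normalization, while the median of all rows moved from -0.09 to 0.11, 0.17 and 0.06. For MPSVII ES the share went from 25.1% to 49.1%, 41.6% and 39.3%, and for B6 Blu ES from 15.5% to 47.8%, 29.2% and 34.6%. The decreases of Il6st, Jak1 and Stat3 and the increase of Socs2 kept their direction and their call under each of these scalings, at -1.30 to -1.64, -2.54 to -2.84, -1.58 to -1.93 and 5.10 to 5.26 in the clones. Each of these decreases in the clones was smaller after scaling than in the deposited values. In B6 Blu ES against MEF the Il6st decrease went from -1.66 to -0.86 after quantile normalization, where its call held only narrowly.

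The comparison named in the design text sets the clones against MPSVII ES. None of the 6 genes passed it, where 1.04% of all rows did (limma, 173 rows; 0.318% higher and 0.72% lower in the clones). Stat3 came closest to a difference, at -0.76 ± 0.23 (unadjusted p = 0.00725, adjusted p = 0.174, 95% interval -1.26 to -0.25) and at -0.45 without MPSVII ES replicate 1 (adjusted p = 0.902), followed by Socs2 at -0.82 ± 0.26 (unadjusted p = 0.0102, adjusted p = 0.201, 95% interval -1.40 to -0.24). These 2 were the members with an unadjusted p under 0.05. Lifr differed by -0.50 (95% interval -1.01 to 0.01), Il6st by -0.43 (-1.0 to 0.14), Jak1 by -0.27 (-0.82 to 0.28) and Socs3 by -0.46 (-1.07 to 0.14). All 6 differences were thus negative, with a median of -0.48 beside -0.03 over all rows, and for each gene the arrays of the clones overlapped those of MPSVII ES. Without clone 2 the difference was smaller for Stat3 (-0.59), Lifr (-0.27) and Il6st (-0.22), and about as large for Socs3 (-0.48). A miss of the threshold does not show equal levels, and the intervals allow for the clones a Socs2 signal up to 1.40 log2 units lower.

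Against the control ES line no member passed either, where 0.204% of rows did, both for the clones (0.126% higher and 0.078% lower) and for MPSVII ES (0.132% and 0.072%). The clones differed from B6 Blu ES by -1.13 ± 0.35 for Socs2 (unadjusted p = 0.00885, adjusted p = 0.29), the only member with an unadjusted p under 0.05. For the other 5 the difference lay between -0.24 and 0.06. Their 95% intervals were wide, for example -1.01 to 0.52 for Il6st and -0.81 to 0.80 for Socs3, so equal levels are not shown. MPSVII ES differed from B6 Blu ES by 0.68 ± 0.35 for Stat3 (95% interval -0.11 to 1.46; 0.37 without MPSVII ES replicate 1), 0.56 ± 0.36 for Lifr (-0.23 to 1.36) and -0.31 ± 0.41 for Socs2 (-1.21 to 0.59), with no member at an unadjusted p under 0.05. B6 Blu ES has 1 array, and its spread was taken to be that of the other lines. Its fibroblast marker mean, 5.48, lay above that of every other pluripotent array, and the part of this in its values was not tested.

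Among the 4 clones, Socs2 and Il6st differed by limma's moderated F test, 2 of 6 members where 9.01% of all rows were called. The clone means of Socs2 ranged over 2.40 log2 units, from 6.61 ± 0.40 in clone 5 to 9.01 ± 0.08 in clone 6 (SD, n = 2; adjusted p = 0.00892). Clone 1 lay at 7.64 ± 0.19 and clone 2 at 8.28 ± 0.76. In the deposited values the Socs2 arrays of clone 5 lay below and those of clone 6 above all other clone arrays. Set against the mean of the other 3 clones, clone 5 was lower by 1.70 ± 0.27 (log2 difference -1.70, adjusted p = 0.0318, where 0.366% of rows were called in clone 5, 0.126% higher and 0.24% lower) and clone 6 higher by 1.5 ± 0.27 (adjusted p = 0.0321, where 1.18% were called in clone 6, 1.07% higher and 0.108% lower). The F test of Socs2 held in each of 12 leave-one-array-out fits (adjusted p = 0.00875 to 0.0347) and without clone 2 (adjusted p = 0.0144). The contrasts of clone 5 and clone 6 held in 4 and 5 of those fits. They ranged from -1.98 to -1.42 and from 1.32 to 1.68. The arrays whose removal ended the clone 5 call were both of clones 1, 5 and 6 and of MPSVII ES. For clone 6 they were both of clones 1 and 6 and of MPSVII ES, and replicate 2 of clone 5. The clone 5 arrays also lay below all other clone arrays under each of the scalings. After intensity-dependent normalization, however, clone 2 replicate 1 (9.12) lay above both clone 6 arrays (8.97 and 8.79). After quantile normalization clone 2 replicate 1 (9.01) lay above clone 6 replicate 2 (8.93).

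The clone means of Il6st ranged over 1.34 log2 units, from 5.15 ± 0.47 in clone 2 and 5.15 ± 0.24 in clone 5 to 6.31 ± 0.16 in clone 1 and 6.49 ± 0.49 in clone 6 (SD, n = 2; adjusted p = 0.033). Clones 2 and 5 overlapped neither clone 1 nor clone 6. This call was lost in 8 of 12 leave-one-array-out fits, namely without either array of clones 1 and 5 and of MPSVII ES and replicate 2 of clones 2 and 6, with adjusted p up to 0.089. It was also lost without clone 2 (adjusted p = 0.128), with the clones fitted alone (0.0544) and with the control rows included (0.0786). Against the mean of the other 3 clones no single clone passed for Il6st, with -0.84 for clone 2 (adjusted p = 0.0713), -0.83 for clone 5 (0.23), 0.95 for clone 6 (0.159) and 0.71 for clone 1 (0.24).

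In the deposited values clone 2 had the lowest mean of the 4 clones for Lifr, Il6st, Jak1 and Stat3. For Il6st the step to clone 5 was only 0.0067 ± 0.33. After intensity-dependent normalization Il6st read 5.85 and 5.55 in clone 2, above clone 5 at 5.20 and 5.17. Jak1 then read 5.83 and 5.44 in clone 2 beside 5.38 and 5.69 in clone 6. In the deposited values Lifr in clone 2 lay 0.92 ± 0.24 below the other clones (log2 difference -0.92, adjusted p = 0.0313, arrays not overlapping). Jak1 in clone 2 lay 0.90 ± 0.26 below (-0.90, adjusted p = 0.0466, arrays overlapping). Stat3 at -0.66 (adjusted p = 0.106) and Il6st at -0.84 (adjusted p = 0.0713) did not pass. In this contrast 11.5% of all rows were called, and 10.7% were lower and 0.87% higher, so 2 of 6 members called lower is to be read against a clone with many lower rows. The clone 2 arrays also had the narrowest spread of values, with interquartile ranges of 1.88 and 1.70 log2 units against 1.96 to 2.39 on the other clone arrays, and the lowest pluripotency marker means, 7.15 and 6.99. The part of these in the result was not tested. Under quantile and intensity-dependent normalization Jak1 no longer passed (-0.53 and -0.27, adjusted p = 0.115 and 0.36), while Lifr did (-0.90 and -0.80, adjusted p = 0.0165 and 0.0393). The Lifr call was lost in 5 of 12 leave-one-array-out fits, without either array of clone 2, replicate 2 of clone 1 or 6 or replicate 1 of clone 5. That of Jak1 was lost in 7, without either array of clone 1 or of MPSVII ES, replicate 2 of clone 2 or 6 or replicate 1 of clone 5. Over all 12 fits the Jak1 difference ranged from -1.28 without replicate 1 of clone 2, where the call held, to -0.52 without replicate 2. Clone 1 had no member called against the other clones (0.582% of rows, 0.522% higher and 0.06% lower).

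**Figure D3:**
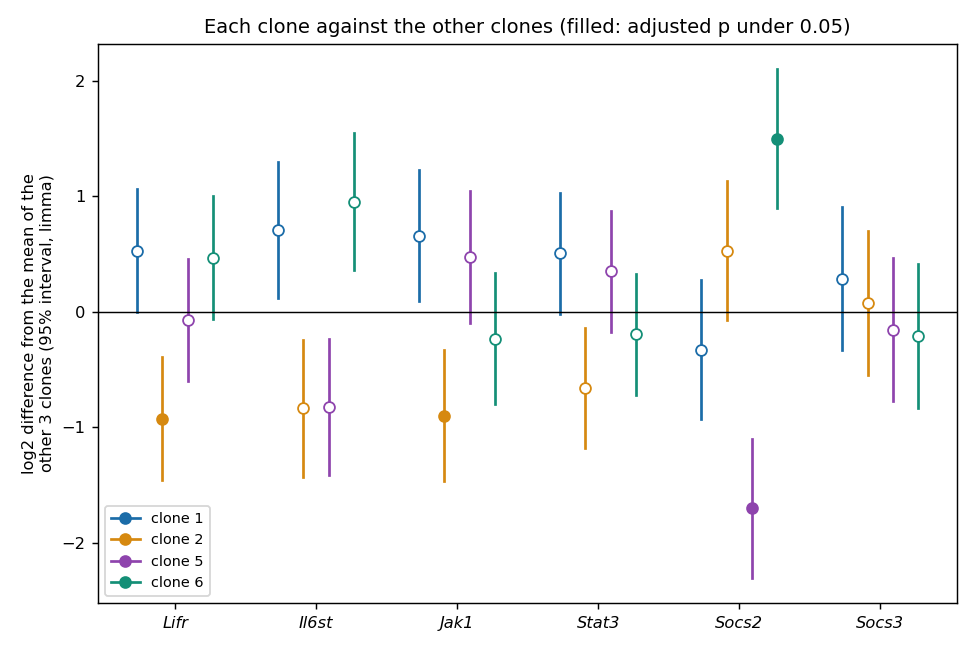
Log2 difference of each clone from the mean of the other 3 clones (y axis, with 95% intervals of limma) for the 6 genes (x axis); filled points passed the test. Socs2 shows the widest spread, from -1.70 in clone 5 to 1.5 in clone 6, and clone 2 lies below 0 for both receptor chains, Jak1 and Stat3.

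Ordered by line mean, the levels of Jak1 had 1 step wider than 2 standard errors, that from MEF to clone 1 (2.61 ± 0.31), and no neighbouring lines below it differed beyond that margin. The same held for Stat3, where MEF was followed by MPSVII ES (step of 1.44 ± 0.29). Il6st had 2 such steps, from MEF to clone 6 (1.19 ± 0.33) and from B6 Blu ES to clone 5 (0.86 ± 0.40). Socs2 had 2 as well, from clone 1 to clone 5 (1.03 ± 0.33) and from clone 5 to MEF (3.72 ± 0.33). For Lifr, from MPSVII ES at the top to MEF and clone 2 at the bottom, and for Socs3, from MPSVII ES to MEF, no neighbouring lines differed by more than 2 standard errors. Such steps test nothing, since the lines were ordered by these same values, and small steps do not show equal levels. Line means of Lifr ran from 5.13 in MPSVII ES to 3.94 in clone 2. Those of Stat3 below MEF ran from 5.63 in MPSVII ES to 4.37 in clone 2.

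Profiles like those of the members were sought among all rows with 1 symbol, by the root mean square difference between the 7 line means after centring each gene on its own mean. The nearest to Jak1 were Ctsz (0.18 log2 units), Lacc1 (0.18) and Sptbn1 (0.19), and the nearest to Stat3 were Glmp (0.11), Spop (0.11) and Anxa6 (0.12). Il6st was nearest to Cfap97 (0.15), Ift43 (0.18) and Akap9 (0.20), and Lifr to Setdb1 (0.07), Zfp280b (0.07) and Senp1 (0.09). Socs3 was nearest to Kank3 (0.08), Ddx11 (0.08) and Patl2 (0.10). Socs2 had no close match on this measure, with Sall4 (0.63), Rif1 (0.83) and Nr0b1 (0.86) as its nearest rows. The distance was not scaled to a gene's range, so distances of different members are not comparable. That range was widest for Socs2, with line means from 2.89 in MEF to 9.01 in B6 Blu ES. Sall4, a transcription factor of pluripotent cells, had clone 5 at 9.42 and the other clones at 9.54 to 10.11, a narrower range than that of Socs2.

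The other genes of the pathway were taken from 7 lists that name 50 genes, of which 43 had a row. Of 6 ligand genes the clones had 1 called below MEF and 0 above, where 27% of all rows were called lower and 7.78% higher. The called gene was Il6, interleukin 6, at -2.21 ± 0.24 (adjusted p = 3.34e-05), with 4.33 and 3.29 in MEF and 1.40 to 1.82 in the clones. All of these values lay below the median of the tested rows on their array, which was 4.45 and 4.34 in MEF. Lif itself read 3.08 and 2.92 in MEF and 2.14 to 2.93 in the clones and was not called. Of 2 further receptor genes Osmr, the oncostatin M receptor chain that also pairs with gp130, was lower by 4.52 ± 0.15 (log2 difference -4.52, adjusted p = 1.5e-08). Osmr stood at 7.83 and 7.73 in MEF and between 2.89 and 3.48 in the clones, and its differences for MPSVII ES and B6 Blu ES were -4.24 and -3.80. Both chains that pair in the oncostatin M receptor, Osmr and Il6st, were thus called lower, whereas Lifr was not. Cntfr, the binding chain for ciliary neurotrophic factor, was not called in the deposited values.

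The counts of the JAK, STAT and SOCS lists are again to be read against 27% of all rows called lower and 7.78% higher. Of 2 further JAK genes Jak2 was lower in the clones by 2.77 ± 0.20 (log2 difference -2.77, adjusted p = 1.53e-06) and Tyk2 was not called. Jak2 read 6.54 and 5.85 in MEF and 3.03 to 3.76 in the clones. Of 5 further STAT genes 2 fell, Stat6 at -0.91 and Stat5b at -0.89, and 1 rose, Stat4 at 1.44 (adjusted p = 0.00104, 0.0111 and 0.00154). Stat5b lost its call without MEF replicate 1 (-0.57) and Stat4 with line means as samples. Stat5b also read below the median of the tested rows on every array, with 4.025 and 3.386 in MEF. Of 6 further SOCS family genes 3 fell, Socs5 at -1.15, Socs6 at -0.80 and Socs4 at -0.63 (adjusted p = 0.00255, 0.0103 and 0.0386). After quantile normalization none of these 6 was lower and 2 were higher, so this list has no fixed direction. Socs5 also lost its call without MEF replicate 1 and Socs6 without either MEF array. The Socs4 call was lost in 6 of 12 leave-one-array-out fits (either array of MEF or of clone 5, replicate 1 of clone 2 and replicate 2 of clone 6), under all 3 scalings, with line means, without clone 2 and with all rows of the table. Socs2 was the only SOCS gene called higher in the clones in the deposited values.

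Among 10 inhibitors and adaptors 4 fell and 3 rose, where 27% of all rows were called lower and 7.78% higher. Under each of the 3 scalings 2 were lower and 3 higher, so the balance of this list turns as well. The phosphatase genes Ptpn11, an adaptor phosphatase recruited by gp130, and Ptpn6, typical of blood cells, stood at -2.01 and -1.40 (adjusted p = 9.22e-06 and 3.71e-05). The adaptor Gab1 at 1.38 and Pias2, a member of the family of STAT inhibitors, at 1.03 were higher (adjusted p = 0.00137 and 0.0013). Both lost their call with line means as samples.

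Of 12 genes known as STAT3 targets or responders in ES cells the clones had 5 called below MEF and 2 above. Over all rows 27% were called lower and 7.78% higher. Ccnd1, cyclin D1, stood at -2.51, Myc at -1.5 and Fos at -1.47 (adjusted p = 4.16e-05, 9.61e-05 and 0.006), and Tfcp2l1, a pluripotency factor downstream of STAT3, at 1.61 (adjusted p = 6.82e-05). Fos lost its call without MEF replicate 1 (-0.94). After quantile normalization 3 were lower and 5 higher, so the balance of this list turns with the scaling. In MPSVII ES against MEF 2 of the 12 were higher, Tfcp2l1 at 2.60 and Klf5 at 2.11, and 1 was lower, Ccnd1 at -2.23 (adjusted p = 1.99e-05, 0.000177 and 0.000814). In that comparison 26.7% of all rows were called, 6.7% higher and 20% lower, so the number called in this list is near that share. The list medians in the clones were -0.29 for ligands, -2.19 for receptors, -1.42 for JAK genes, -0.47 for STAT genes, -0.41 for SOCS genes, -0.34 for inhibitors and adaptors and -0.14 for targets, beside -0.09 over all rows. The macrophage and fibroblast markers given above moved with each of these decreases from MEF, and their part was not tested.

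**Figure D4:**
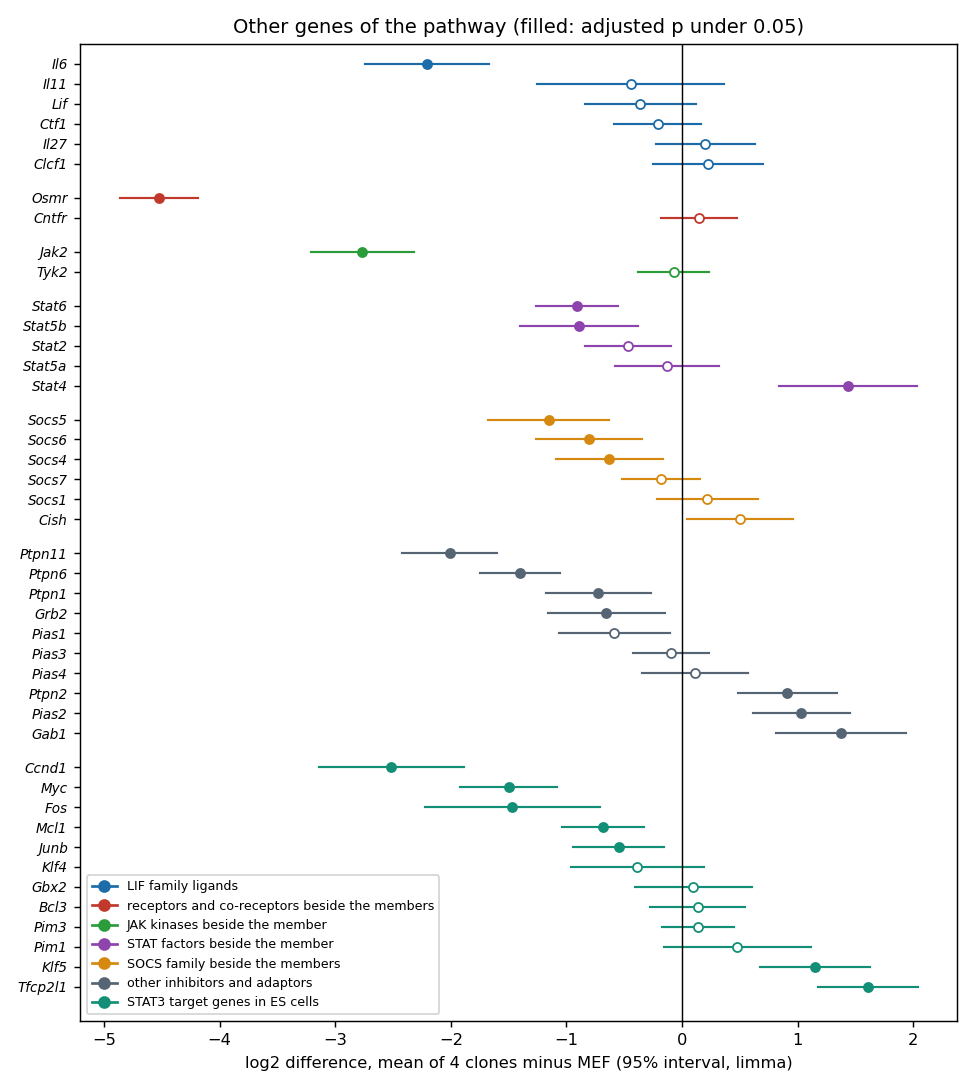
Log2 difference of the mean of the 4 clones from MEF (x axis, with 95% intervals of limma) for the 43 other pathway genes with a row, coloured by list; filled points passed the test. Osmr, Jak2, Ccnd1 and Il6 lie farthest below 0, and Tfcp2l1 and Stat4 farthest above.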

How the data were processed

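Per the labels, total RNA was amplified and hybridised to 13 arrays. Values are deposited as log2 signal. Per the submitters' processing notes the authors used RMA in Affymetrix Expression Console; versions are not given in the sources used here. RMA corrects background, equalises probe distributions and summarises probes by median polish. Of 23238 rows, 6577 below the first annotated row number, none with a gene, were left out as controls. A mean per line was fitted to the other 16661 rows on all arrays with limma 3.58.1 (R 4.3.3; 6 residual and 4.53 prior degrees of freedom). Rows with a Benjamini-Hochberg adjusted p under 0.05 over all rows were called; ± after a difference is limma's standard error. The number of arrays limits precision, and no detection calls were used here.

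The members, gene lists and tests were chosen with earlier results of these data known. Named beside the members are up to 4 called genes per list, those with the largest difference, and the 3 nearest profiles. The fits were tested on simulated data. Alternatives were 3 scalings, leave-one-array-out fits (12), a replicate block, no dim rows (mean under 4.2), a trended and robust prior, the compared lines alone, line means as samples, leaving out clone 2 and all table rows. The other Socs3 row was added after seeing the data.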

Additional observations from a re-analysis of the deposited data

How the results depend on the processing

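The calls of Jak1, Stat3 and Socs2 in the clones against MEF held under every alternative run, and so did that of Socs2 among the clones, for which line means give no test. That of Il6st against MEF was lost with line means alone (adjusted p = 0.0992). The number of rows called in the clones against MEF was 5803, and 3060 with line means as samples. For the clones against MPSVII ES it was 173, and 114 with the replicate block, 455, 309 and 412 after quantile, median and intensity-dependent normalization, 301 without dim rows, 2 with line means and 22 with all rows of the table. For the clones against B6 Blu ES it was 34, and 246, 122 and 146 after the 3 scalings, 115 without dim rows, 18 with the compared lines alone, 0 with line means, 147 without clone 2 and 19 with all rows. For MPSVII ES against B6 Blu ES it was 34, and 186, 87 and 110 after the scalings, 84 without dim rows, 6 with the lines alone and 10 with all rows. Among the clones it was 1501, and 784 with the clones alone, 134 without clone 2 and 927 with all rows. The cause of these shifts was not tested.

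Of the 2 members called among the clones, 1 was called with the replicate block, with the clones alone, without clone 2 and with all rows, while 4 were called without dim rows. Of the 2 called in clone 2, 1 was called with the block, with a trended prior and with the clones alone, and 0 with all rows. The 1 called in clone 5 became 2 after intensity-dependent normalization, and 0 with the clones alone or all rows, as did the 1 of clone 6 under the latter 2 settings. Leaving out 1 array at a time gave 4052 to 6063 rows for the clones against MEF, 6 to 183 against MPSVII ES and 20 to 47 against B6 Blu ES, 6 to 49 for MPSVII ES against B6 Blu ES and 487 to 1352 among the clones. The members called then numbered 3 to 6 for MPSVII ES against MEF, 1 to 2 among the clones, 0 to 3 for clone 2 and 0 to 1 for clones 5 and 6.

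Several uncalled differences and 1 called difference, that of Socs4, changed sign. For the clones against B6 Blu ES, Stat3 gave 0.0064 with the replicate block and 0.085 without clone 2, Jak1 gave -0.14 and -0.13 after quantile and intensity-dependent normalization, and Socs3 gave 0.17 with the block and 0.047, 0.055 and 0.068 after the 3 scalings. Leaving out 1 array gave -0.014 to 0.14 for Lifr, -0.061 to 0.13 for Jak1 and -0.12 to 0.12 for Socs3 there. For MPSVII ES against B6 Blu ES, Il6st gave -0.11 and -0.13 after quantile and intensity-dependent normalization, and Jak1 -0.011 after the latter. Socs4 in the clones against MEF, called in the deposited values, gave 0.014 after quantile normalization. The other Socs3 row, chosen after seeing the data, gave -0.35 for the clones, -0.35 for MPSVII ES and -0.025 for B6 Blu ES against MEF, 0.0053 for the clones against MPSVII ES and -0.33 for MPSVII ES against B6 Blu ES.

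Equal replicate numbers did not pair the arrays, since deviations of same-numbered arrays correlated at -0.24 to 0.24 over 15 pairs of lines (median -0.09, 4 above 0.1). All pairs within clones 1, 6 and MPSVII ES and within clones 2, 5 and MEF were positive, and all pairs between these sets negative. In the former set replicate 2 had the wider interquartile range, in the latter replicate 1. A block by replicate number cannot take up such a pattern, and its source was not tested. With the replicate block Il6st among the clones had an adjusted p of 0.0546 and Jak1 in clone 2 of 0.0609, while Socs3 in MPSVII ES against MEF passed at 0.0491. Lines with 2 arrays, or 1 for B6 Blu ES, limit what small differences can be called, and Socs3 lies in the dim range of the arrays.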

Other observations

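Among the other pathway genes, 3 of 43 differed between the clones by the F test of limma, a share below the 9.01% of all rows called in that test. Pias1, which encodes a protein inhibitor of activated STAT, ranged over 1.56 log2 units (adjusted p = 0.0186), with 6.24 and 5.83 in clone 2 against 7.41 and 7.79 in clone 1. Stat4 ranged over 1.88 (adjusted p = 0.0316), with 2.95 and 3.25 in clone 2 and 4.55 and 5.40 in clone 1, and Stat2 over 0.97 (adjusted p = 0.0404). These 3 calls held in 10, 7 and 1 of 12 leave-one-array-out fits, and none held without clone 2.

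Against MPSVII ES the clones had 3 of the 43 genes called, where 1.04% of all rows were. Socs4 was higher by 1.04 ± 0.21 (adjusted p = 0.048), and the STAT3 targets Myc and Tfcp2l1 stood at -1.0 ± 0.19 and -0.99 ± 0.19 (adjusted p = 0.0422 and 0.0447). Their calls held in 1, 4 and 2 of 12 leave-one-array-out fits, and none held with line means as samples. Gab1 stood at 7.09 and 7.30 in MPSVII ES and between 5.38 and 7.08 on the clone arrays, and was not called in this comparison.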
